A study of Mus musculus with 9 samples.

Results

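The insulin-like growth factor (IGF) genes examined here were the ligand Igf1, the receptors Igf1r, Insr and Igf2r, the receptor adaptor Irs1 and the binding proteins Igfbp4, Igfbp2 and Igfbp5. They were taken by name, with earlier results of these data known, and are 8 of 21883 mouse protein-coding genes. Each gene was examined over its RefSeq span with 50 kb to each side, which is called its window. The peaks came from chromatin immunoprecipitation followed by sequencing (ChIP-seq) of the glucocorticoid receptor (GR), a steroid-activated transcription factor, and of H3K27ac, an acetylated histone mark of active promoters and enhancers. Peaks of the 4 GR libraries that shared at least 1 bp were merged into 1 locus, and 39 of the 18584 loci lay in the IGF windows.

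All cells were granulosa cells, the somatic cells around the oocyte, obtained by puncturing ovaries of wildtype 21-day-old CBA x C57BL/6 F1 mice. Every mouse had been injected with 5 IU of equine chorionic gonadotropin (eCG, PMSG), a hormone with follicle-stimulating action. The 6 h group (2 GR libraries) also received 5 IU of human chorionic gonadotropin (hCG), a stand-in for the luteinising hormone surge, 44 h after eCG and was killed 6 h after that. The 0 h group (2 GR libraries and 1 H3K27ac library) was killed at 44 h without hCG. H3K27ac at 6 h was not analysed here, and 4 of the 9 samples (a GR library each of PRWT and PRKO cells, and inputs) were not analysed here. Mice killed 6 h later without hCG were not among the groups, so hCG, the injection and the extra hours cannot be told apart. Whether replicates came from separate animals is not stated, so spread and p-values describe these libraries.

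IGF1 and insulin bind the receptor kinases IGF1R and INSR, which recruit adaptors such as IRS1 and pass the signal to PI3-kinase and AKT. IGF2R instead carries IGF2 to the lysosome, and the IGF-binding proteins hold IGFs in extracellular fluid until proteases release them. In growing follicles IGF1 enhances the response of granulosa cells to follicle-stimulating hormone, and in the mouse granulosa cells themselves make it. GR acts at response elements where it binds DNA directly and at sites where it meets other factors.

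The GR lists of the 6 h libraries held 14748 and 10588 peaks, and those of the 0 h libraries 10119 and 9728. The weakest peak had a −log10 p of 9.02 and 9.10 at 6 h, against 9.02 and 9.0 at 0 h. Read depth is unknown, so a missing peak shows only that a library did not pass that limit there. Each peak carries the authors' fold enrichment over the background their peak caller estimated, which describes a peak within 1 list and is not compared as an amount between lists. Ranks within a list are by the authors' −log10 p, not by fold enrichment: a peak "ranked above" a percentage of its list had a higher −log10 p than that share of its peaks. As a check of the labelled cell type at 0 h, 10 of 10 granulosa markers had H3K27ac within 1 kb, among them Fshr, Foxl2 and Cyp19a1. Markers of other ovarian cells had it at 2 of 5 theca genes (Cyp17a1, Ptch1), 1 of 6 oocyte genes (Gdf9), 3 of 6 leukocyte genes (Cd68, Fcer1g, Itgam) and 2 of 6 endothelial genes (Cdh5, Pecam1). These counts were not set against the share over all genes, and the 6 h cells were not checked with this mark. What cells other than granulosa cells contributed to the IGF peaks was not tested.

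The proximal promoters of 4 of these genes and of Airn, the antisense transcript within Igf2r, are shown because a GR locus or an H3K27ac peak overlapped the start site, or, for Airn, because the single Igf2r locus did. They are RefSeq sequence of GRCm38.p6 (mm10), 250 bases ending just before the start site, written 5′ to 3′ along the transcribed strand. Capitals mark matches, on either strand, to the motifs searched: AGAACA (the hexamer that a GR response element holds as an inverted repeat), TGANTCA (AP-1), TGACGTCA (CRE), CAAGGTCA (SF-1), TGTTTAC (FOXO), GGGCGG (GC box), CACGTG (E-box) and the full GR response element.
Igf1, chr10:87860861-87861110, plus strand: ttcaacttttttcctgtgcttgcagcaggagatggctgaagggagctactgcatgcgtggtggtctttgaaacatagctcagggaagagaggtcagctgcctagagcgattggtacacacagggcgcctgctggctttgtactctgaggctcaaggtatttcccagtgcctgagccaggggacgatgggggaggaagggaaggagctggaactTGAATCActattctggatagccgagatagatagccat
Igf1r, chr7:67952007-67952256, plus strand: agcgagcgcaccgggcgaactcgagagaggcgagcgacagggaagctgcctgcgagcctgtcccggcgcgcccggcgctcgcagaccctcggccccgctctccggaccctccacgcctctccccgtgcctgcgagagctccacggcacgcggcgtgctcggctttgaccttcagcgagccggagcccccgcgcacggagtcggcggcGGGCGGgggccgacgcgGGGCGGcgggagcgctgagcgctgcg
Airn, chr17:12741061-12741310, plus strand: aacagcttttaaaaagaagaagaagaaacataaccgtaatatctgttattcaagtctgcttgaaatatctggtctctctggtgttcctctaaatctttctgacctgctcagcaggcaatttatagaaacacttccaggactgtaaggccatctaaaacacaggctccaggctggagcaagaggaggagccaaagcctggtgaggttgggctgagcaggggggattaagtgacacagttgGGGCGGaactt
Irs1, chr1:82291440-82291689, minus strand: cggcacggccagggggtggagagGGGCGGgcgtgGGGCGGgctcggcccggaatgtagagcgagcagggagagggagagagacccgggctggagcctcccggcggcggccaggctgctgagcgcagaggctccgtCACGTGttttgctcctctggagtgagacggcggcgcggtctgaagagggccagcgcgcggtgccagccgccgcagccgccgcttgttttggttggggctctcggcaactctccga
Igfbp4, chr11:99040994-99041243, plus strand: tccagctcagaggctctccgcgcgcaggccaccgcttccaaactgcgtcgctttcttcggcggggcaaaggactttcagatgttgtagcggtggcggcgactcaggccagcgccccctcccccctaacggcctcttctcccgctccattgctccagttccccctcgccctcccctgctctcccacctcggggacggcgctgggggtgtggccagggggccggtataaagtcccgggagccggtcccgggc
Igf1 held 1 AP-1 match, Igf1r 2 GC boxes, Airn 1 GC box, Irs1 2 GC boxes and 1 E-box, and Igfbp4 no match. None of these 5 windows held AGAACA or the full GR response element. Of the promoters not printed, that at the first base of Igfbp2 held 1 AGAACA, 3 GC boxes and 1 E-box and overlapped H3K27ac, that of Igf2r held 3 GC boxes and 2 E-boxes, a second Igfbp2 promoter held 1 AP-1 match, and that of Igfbp5 held no match. Of 32851 RefSeq promoters, 16.1% held AGAACA, 0.00913% the full element, 6.75% AP-1, 32.7% a GC box, 6.02% an E-box, 1.55% the CRE, 1.33% the SF-1 match and 3.17% the FOXO match. The Igf1r and Irs1 windows were 77.6% and 72.4% G and C, above 97.6% and 93.6% of all promoters, whereas Airn had 45.6%, above 25.7%. A match describes these letters only, and the absence of one says nothing of binding.

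GR loci fell unevenly over the 8 windows, which were 113 to 381 kb long. That of Igf1r held 15 loci, Igfbp4 10, Irs1 7, Insr 4, Igf1 2 and Igf2r 1, and Igfbp2 and Igfbp5 held none. Of the 10 in the Igfbp4 window, 9 overlapped the neighbouring gene Top2a. The median protein-coding gene had 2 loci, and 68.8% of genes had at least 1. The windows together gave 27 and 17 peaks in the 6 h libraries, against 19 and 16 in the 0 h libraries. The first 6 h library was the highest and the other three lay close together, so the groups overlapped. The means were 22.0 ± 7.07 peaks at 6 h and 17.5 ± 2.12 at 0 h (SD, n = 2 each), a difference of 4.5 within the spread between libraries (exact permutation test, two-sided, p = 0.667; the smallest p this design allows is 0.333). As a share of its own list, each 6 h library had 0.183% and 0.161% of its peaks in the IGF windows, against 0.188% and 0.165% in the 0 h libraries. The difference turned round, to −0.5, without the first 6 h library and, to −3, when each list was reduced to its 9726 peaks of highest −log10 p.

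**Figure D1:**
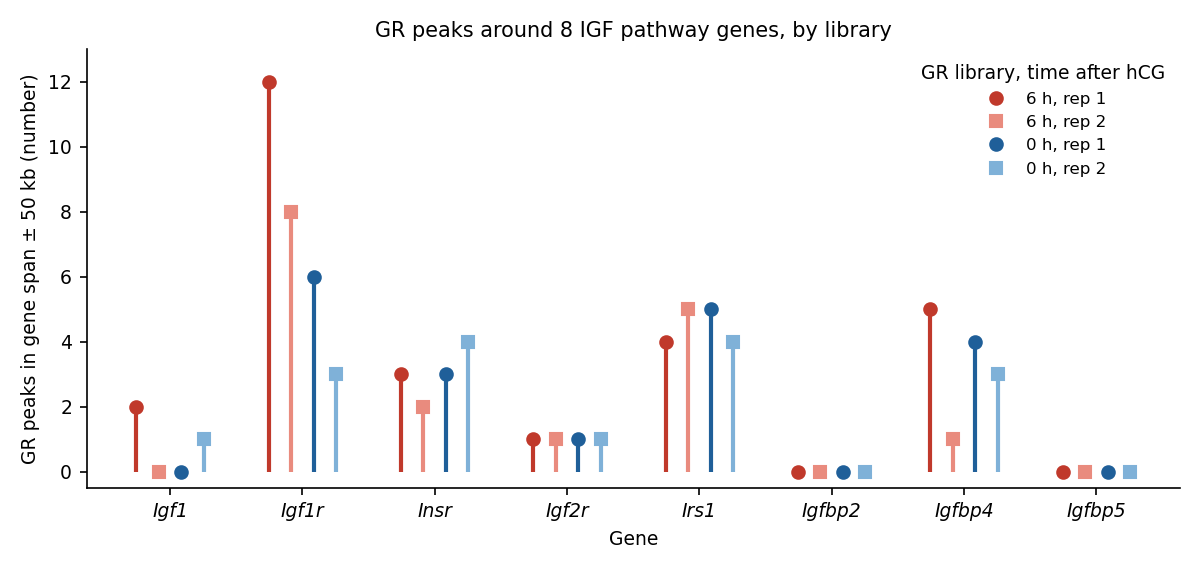
Number of GR peaks (y axis) within 50 kb of each IGF gene (x axis), with 1 point for each of the 4 libraries, 6 h left of 0 h. Igf1r had 12 and 8 peaks at 6 h and 6 and 3 at 0 h, and Igfbp2 and Igfbp5 had 0 in every library.

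Igf1, the ligand that granulosa cells make, had 2 GR loci, as the median gene had, in a window rich in H3K27ac. Fewer loci were found at 48.5% of genes, and its 1.12 loci per 100 kb stood near the median of 0.982. It lies at chr10:87858265-87937047. Its 179-kb window gave 2 and 0 GR peaks at 6 h, against 0 and 1 at 0 h, so no locus was called in both libraries of a time. The locus at chr10:87866395-87866832, 5.48 kb past the start site, lay in H3K27ac and had a fold enrichment of 6.06 in the first 6 h library and 7.44 in the second 0 h library. A second locus, chr10:87879996-87880243, was called by the first 6 h library alone at 8.22 and lay 6832 bp from the nearest H3K27ac peak. The 10 H3K27ac peaks covered 7.47% of the window, more than in 87.9% of genes. Of the 10, 1 held a GR locus, against 36.1% of all H3K27ac peaks. The widest was 4788 bp. The start site whose promoter is printed above lay in H3K27ac and had no GR peak.

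Igf1r, the receptor kinase for IGF1, carried the most GR loci of the 8 genes, in the longest window. In the full lists its 6 h and 0 h counts did not overlap. It spans chr7:67952257-68233668. Its 381-kb window gave 12 and 8 peaks at 6 h, against 6 and 3 at 0 h. Both 6 h libraries were above both 0 h libraries, which held for 1 of the 8 IGF genes (12.5%) and for 10.9% of all genes; no IGF gene had fewer peaks in both 6 h libraries, as 3.66% of all genes had. The means were 10 ± 2.83 peaks at 6 h and 4.5 ± 2.12 at 0 h (SD, n = 2 each), a difference of 5.5 (exact permutation test, two-sided, p = 0.333, the smallest possible). A difference at least as high was found at 0.658% of genes. That share was not scaled for window or list length, and Igf1r had the highest difference of the 8 genes. The window held more loci than that of 99.3% of genes and more per 100 kb (3.93, against a median of 0.982) than 86.7%. Per 100 kb, the windows of Igfbp4 (8.88) and Irs1 (4.42) held more loci than that of Igf1r. The difference was 3.5 without the first 6 h library. With lists of equal length the counts were 5 and 7 at 6 h and 5 and 3 at 0 h, so the groups met at 5 and were no longer apart.

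The Igf1r loci fell into a group at the start site and a group deep in the gene. At the start, 4 loci lay between 1.34 kb before and 0.212 kb past the start site. They were parted by gaps of 27, 251 and 60 bp, so merging peaks within 500 bp of each other joined them. The first 6 h library called all 4, and the second 6 h library none of them. The first 0 h library called 3 and the second 0 h library 1. The locus on the start site itself, chr7:67951752-67952321, had a fold enrichment of 7.57 in the first 6 h library and 7.44 in the first 0 h library, with summits at −172 and −356 bp, within and before the GC-rich sequence printed above.

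Deep in Igf1r, the 3 loci called only at 6 h (by each 6 h library and by no 0 h library) lay within the gene span, 78.8, 93.9 and 113 kb past the start site. The locus chr7:68046021-68046312 had fold enrichments of 15.5 and 17.2 at 6 h and ranked by −log10 p above 91.6% and 95.9% of those lists. The locus chr7:68064935-68065348 had fold enrichments of 10.8 and 11 at 6 h and ranked by −log10 p above 91.2% and 95%. These lay outside H3K27ac as measured at 0 h, 1034 and 1620 bp from the nearest such peak. The remaining one, chr7:68030900-68031193, had fold enrichments of 6.95 and 8.0 at 6 h, ranked above 29.1% and 65.3%, and lay in H3K27ac.

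Between them, at 84.4 kb, lay the Igf1r locus that all 4 libraries called. That locus, chr7:68036457-68036988, had fold enrichments of 13.1 and 8.36 at 6 h and of 7.69 and 7.55 at 0 h. By −log10 p it ranked above 90.3% and 75.4% of the 6 h lists and above 53.1% and 45.9% of the 0 h lists. Its neighbour 89.7 kb past the start, chr7:68041784-68042206, was called by both 6 h libraries at 14.3 and 9.17 and by the first 0 h library at 7.12, and the second 0 h library did not call it. Both lay in H3K27ac. The other 6 loci of the gene body beyond the start, at 54.4, 63.4, 69.7, 177, 244 and 245 kb, were called in 1 or 2 libraries each, with fold enrichments of 4.71 to 5.88. Loci at the 2 far positions, 244 and 245 kb, were called by the second 6 h library alone and lay outside H3K27ac.

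H3K27ac at 0 h was dense in the same stretch. The Igf1r window held 32 H3K27ac peaks covering 9.41% of it, more than in 92.1% of genes. Of these, 20 lay between 50 and 100 kb past the start, with 25.3 of the window's 35.9 kb of H3K27ac. This stretch, delimited after its values were seen, held 7 GR loci and gave 6 and 5 GR peaks at 6 h, against 2 and 2 at 0 h. In the whole window 9 of the 32 H3K27ac peaks held a GR locus, against 36.1% of all H3K27ac peaks. Exons and introns were not told apart, because the tables used give gene spans only.

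**Figure D2:**
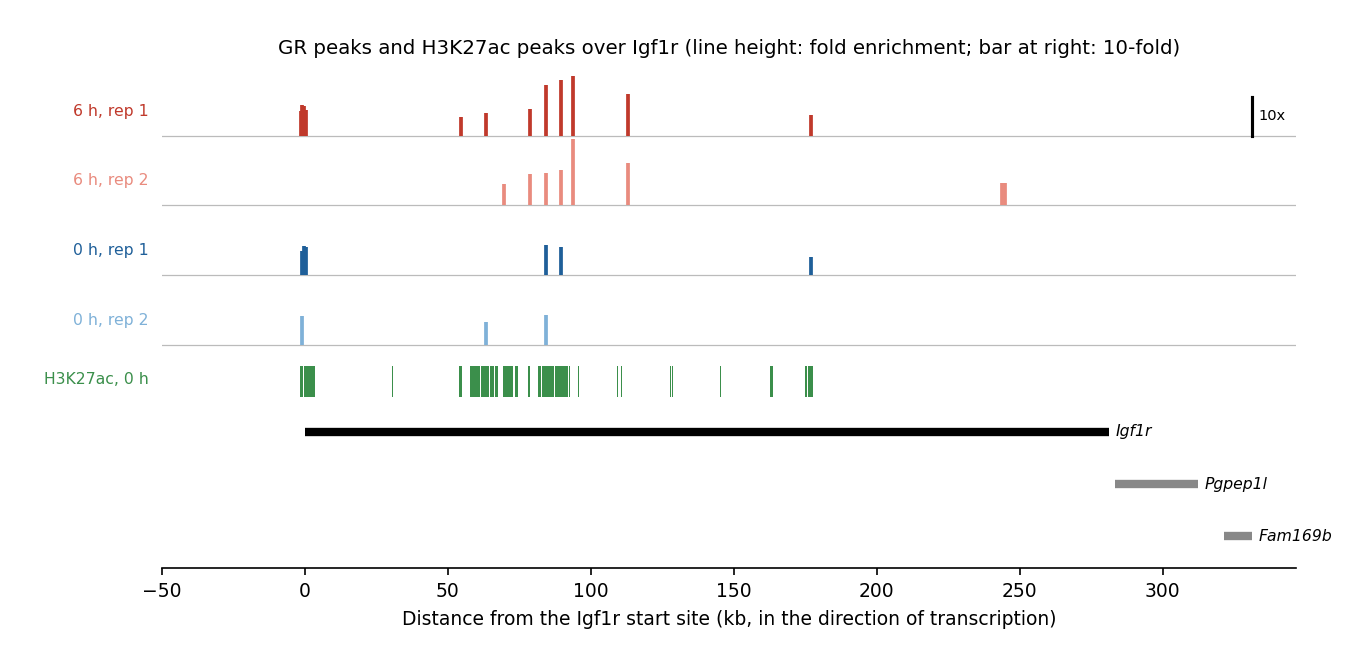
GR peaks of each library (lines; height is the authors' fold enrichment, bar 10-fold) and H3K27ac peaks at 0 h (green) against the distance from the Igf1r start site in kb, with gene spans below. The lines at 93.9 and 113 kb stand in the rows of both 6 h libraries and in no 0 h row, and fall outside the green blocks.

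The 3 genes most like Igf1r, by the Euclidean distance over log2(n + 1) of the peak counts in the 4 GR libraries and the H3K27ac library (5 libraries in all), were Zeb2, Babam2 and Fkbp5. Fkbp5, a co-chaperone of GR and a widely used glucocorticoid target gene, had 11 and 8 GR peaks at 6 h, 6 and 5 at 0 h, and 41 H3K27ac peaks (distance 0.69). Zeb2, a zinc-finger transcription factor, had 9 and 6 at 6 h, 5 and 3 at 0 h, and 25 (0.67). Babam2, a subunit of a deubiquitinase complex, had 11 and 8 at 6 h, 7 and 5 at 0 h, and 26 (0.69).

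Insr, the insulin receptor kinase, held loci that were shared between the times. It lies at chr8:3150922-3279649. Its window gave 3 and 2 peaks at 6 h, against 3 and 4 at 0 h, so the groups overlapped. The means were 2.5 ± 0.707 at 6 h and 3.5 ± 0.707 at 0 h (SD, n = 2 each; exact permutation test, two-sided, p = 0.667). A locus in all 4 libraries, chr8:3209076-3209642, had fold enrichments of 10.9 and 8.73 at 6 h and of 10.2 and 8.34 at 0 h. The other, chr8:3220923-3221513, had 12.5 and 7.45 at 6 h and 8.27 and 10.2 at 0 h. Both lay inside the gene and in H3K27ac, 58.2 and 70 kb from its lower end, and ranked above 83.8% to 43.4% of their lists. The remaining multi-library locus, chr8:3279193-3279748, reached over the upper end of the gene span and was called by the first 6 h library at 9.79 and by both 0 h libraries at 9.79 and 7.53. All 4 Insr loci lay in H3K27ac, and 10 H3K27ac peaks covered 4.89% of the window, more than in 77.2% of genes.

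Igf2r, the receptor that clears IGF2, had a single locus, and it lay at the start of another transcript. Igf2r spans chr17:12682406-12769706 on the minus strand. Each library gave 1 peak, all in the locus chr17:12741194-12741645, which lies 28.3 kb inside Igf2r. Airn, a long noncoding RNA on the opposite strand (chr17:12741311-12859884), starts there; in the mouse it is imprinted, and its transcription on the paternal allele silences Igf2r. The 4 summits lay within a narrow stretch past the Airn start, at 97 and 86 bp in the 6 h libraries and at 98 and 79 bp in the 0 h libraries. The peaks of both 0 h libraries reached before the start base, and those of both 6 h libraries began at it or past it. The fold enrichments were 9.79 and 4.95 at 6 h, against 8.32 and 9.23 at 0 h, and the second 6 h library ranked this peak above only 1.77% of its list, against 60.9% in the first 6 h library and 47.6% and 64.6% at 0 h. H3K27ac covered 59.7% of the locus and lay 65 bp from the Airn start. The peak lists do not tell alleles apart. The start site of Igf2r itself had no GR peak and lay 33 bp from H3K27ac.

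Irs1, the adaptor that couples both receptor kinases to PI3-kinase, was occupied at both times at its start, and loci of all 3 classes lay side by side just inside the gene. It spans chr1:82233105-82291439 on the minus strand. Its window gave 4 and 5 peaks at 6 h, against 5 and 4 at 0 h, with no difference between the means. The locus on the start site, chr1:82290696-82291694, had fold enrichments of 15.2 and 8.06 at 6 h, and of 10.1 and 9.12 at 0 h. It had the highest fold enrichment and the highest rank by −log10 p of the Irs1 peaks in each of the 4 libraries, and ranked above 92.4% and 71.3% of the 6 h lists and 77.7% and 75.1% of the 0 h lists. Its summits lay at −77 and 337 bp from the start in the 6 h libraries and at 9 and 557 bp in the 0 h libraries, so the position of the summit varied within each time. The promoter printed above, with GC boxes and an E-box, lies at its upstream side.

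Just inside Irs1, 1 H3K27ac peak of 6628 bp, chr1:82281368-82287995, held 4 GR loci. The one called only at 6 h, chr1:82281719-82282141, had fold enrichments of 8.97 and 7.54. The one in all 4 libraries, chr1:82283097-82283685, had 9.98 and 6.88 at 6 h and 6.95 and 8.34 at 0 h. The one called only at 0 h, chr1:82284034-82284499, had 6.46 and 7.78 and was the single such locus in all the IGF windows. It stood 348 bp from the locus of all 4 libraries, and merging peaks within 500 bp of each other joined the pair. The last, 5.80 kb inside, was called by the second 6 h library alone at 5.90. A further locus in all 4 libraries, chr1:82316191-82317032, lay 25.2 kb before the Irs1 start at the start of Rhbdd1, a rhomboid-family protease, and had 3.64 and 3.66 at 6 h and 5.71 and 3.99 at 0 h. The remaining locus, 51.8 kb inside, was called by the first 0 h library alone. H3K27ac covered 10.8% of the Irs1 window, more than in 94.3% of genes, and all 7 loci overlapped it.

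Of the binding proteins, Igfbp4 had many loci in its window but few at the gene. It lies at chr11:99040005-99052655. Its window gave 5 and 1 peaks at 6 h, against 4 and 3 at 0 h, and the second 6 h library was the lowest. The means were 3.0 ± 2.83 at 6 h and 3.5 ± 0.707 at 0 h (SD, n = 2 each), a difference within the spread between libraries. Of the 10 loci, 9 overlapped the neighbouring Top2a (chr11:98992947-99024199), which encodes a DNA topoisomerase of dividing cells, and 8 of those lay outside H3K27ac. No locus was called in all 4 libraries or in both libraries of 1 time alone. The locus of highest mean fold enrichment, chr11:98995795-98996235 within Top2a, had 7.44 in the first 6 h library and 6.98 in the second 0 h library, and ranked above 19.4% and 10.6% of those lists. The locus at the Top2a start, chr11:99023989-99024501, had fold enrichments of 6.13 in the first 6 h library and 5.10 and 5.55 in the 0 h libraries, and ranked above 44.6% of the first 6 h list and 33.5% and 38.3% of the 0 h lists. The locus at the Igfbp4 start, chr11:99041109-99041571, was called by the first 0 h library alone at 6.12, in H3K27ac, with its summit 146 bp past the start site whose promoter is printed above.

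Igfbp2 (chr1:72824480-72852474) and Igfbp5 (chr1:72858065-72874865), carriers that hold IGFs outside the cell and neighbours on chromosome 1 whose windows largely coincide, had 0 GR peaks in all 4 libraries. Both windows held the same 10 H3K27ac peaks, which covered 3.26% and 3.57% of them, more than in 65.4% and 68.1% of genes, and the widest was 772 bp. Among all genes 31.2% had no GR locus, but the share was 1.20% among the 2659 genes with 10 or more H3K27ac peaks and 1.71% among the 586 with exactly 10. The count of 10 was that of these windows themselves, and genes of similar H3K27ac coverage were not compared. These 2 members share their peaks and are not separate instances. The nearest H3K27ac peak lay 220 bp from the Igfbp2 start and 709 bp from the Igfbp5 start.

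**Figure D3:**
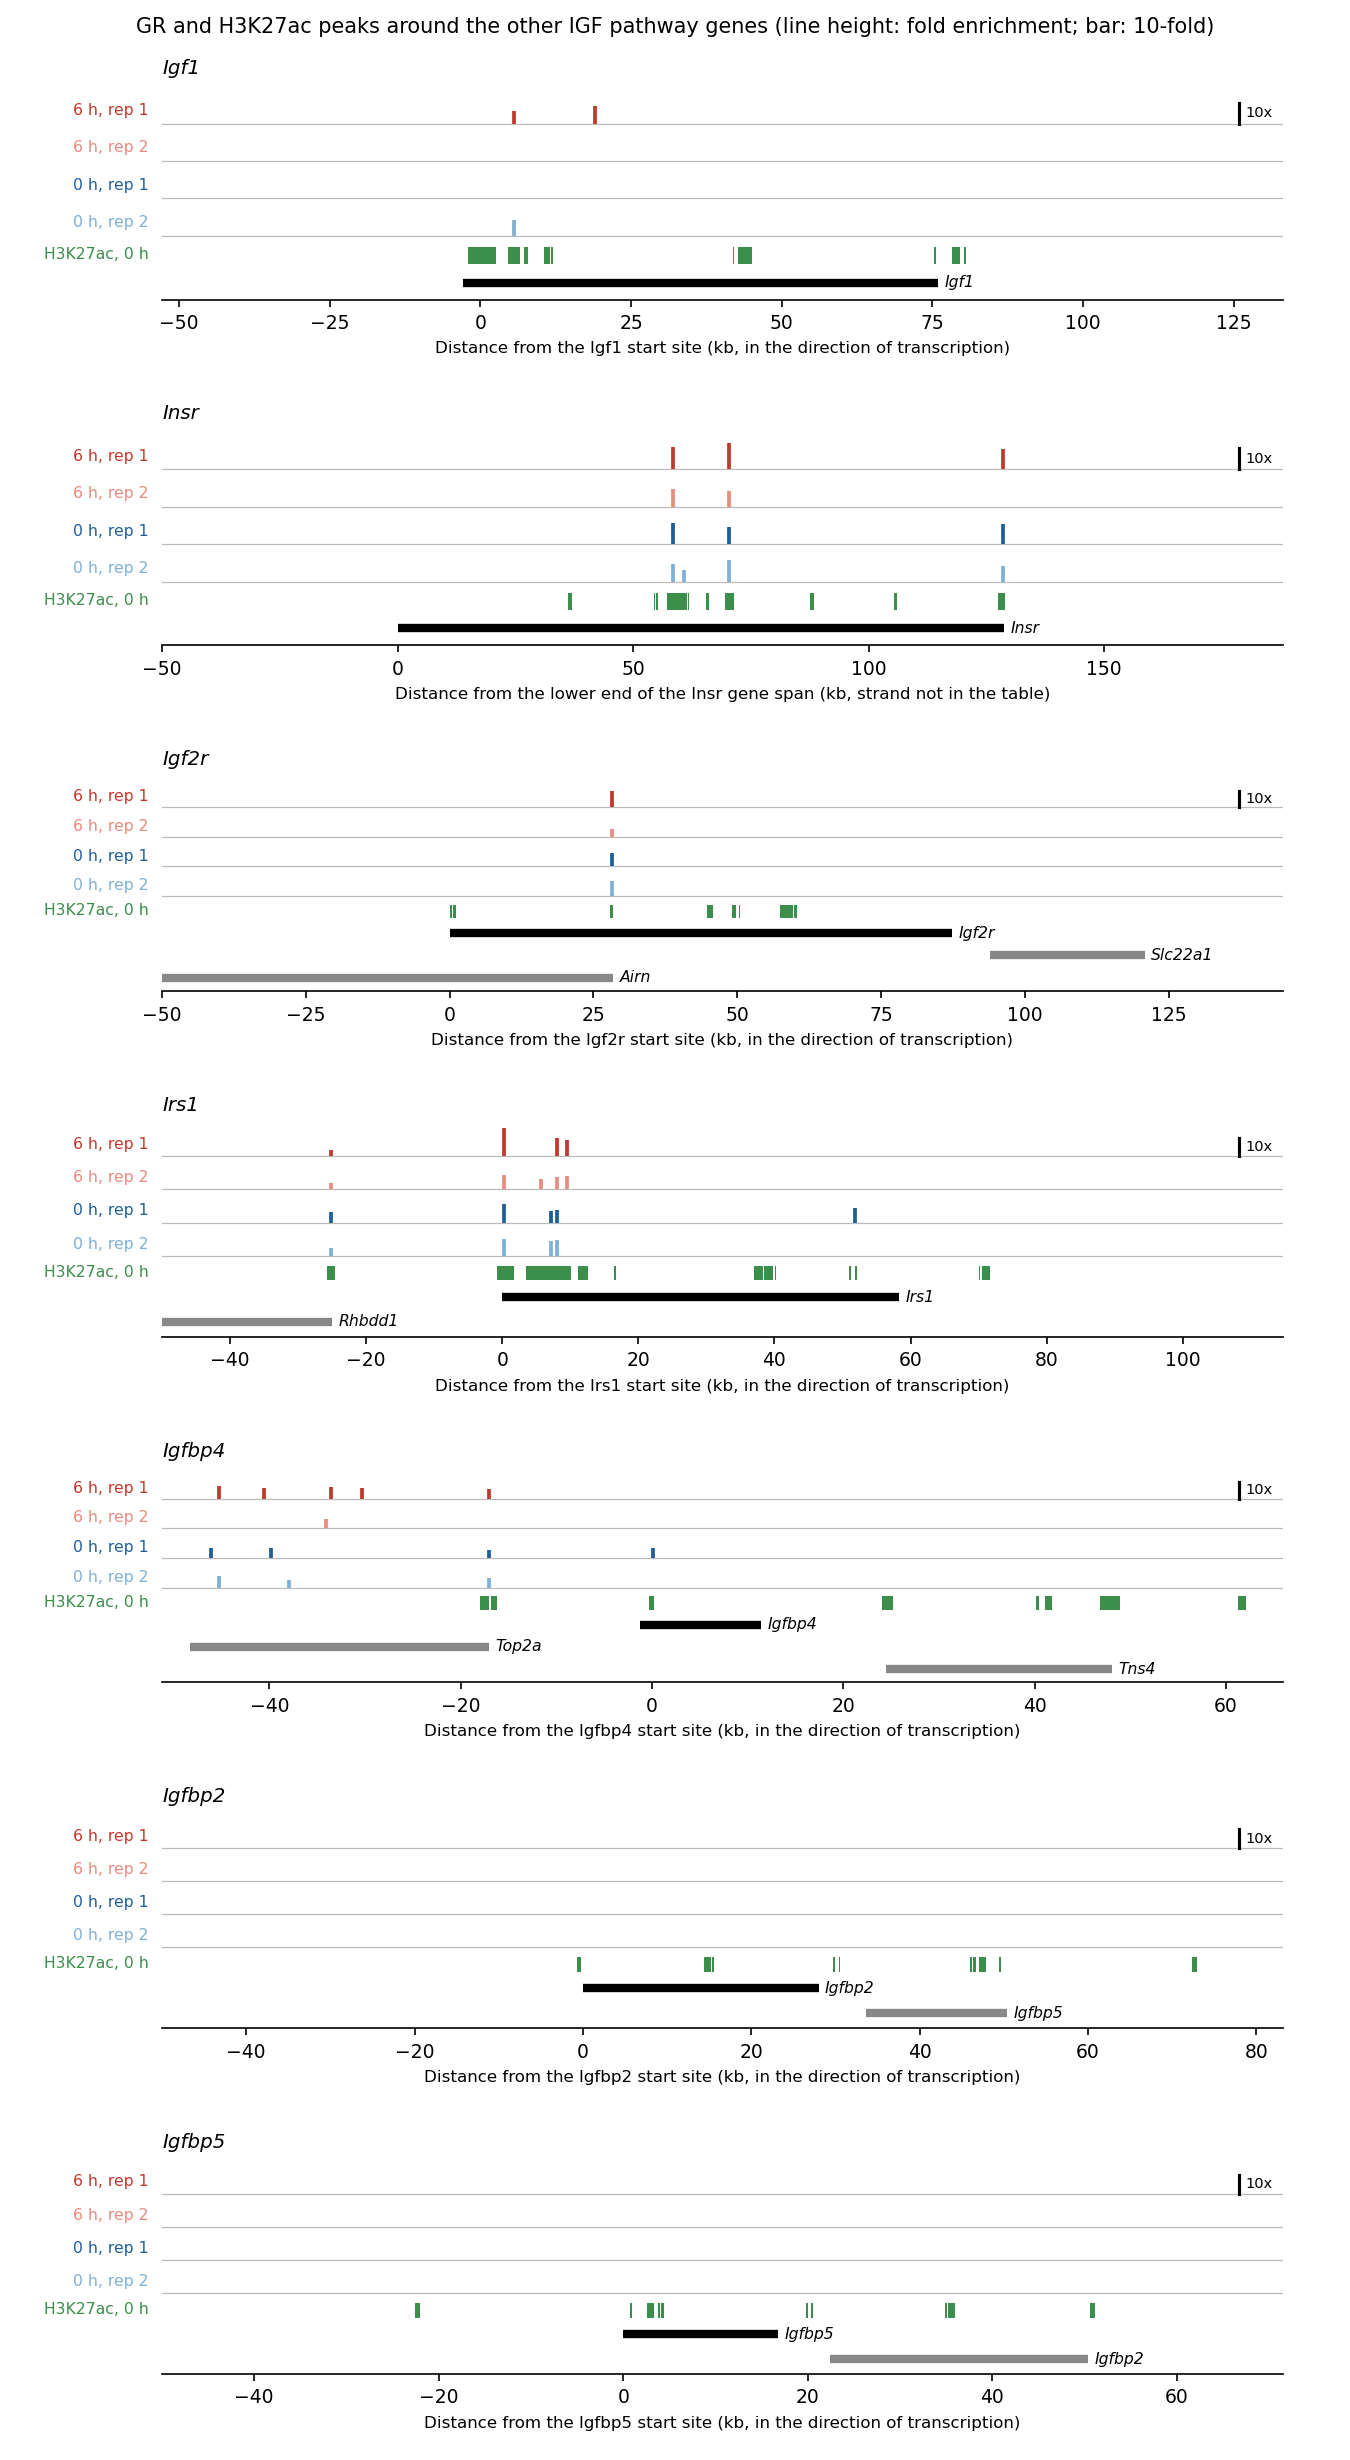
GR peaks of each library (lines; height is the authors' fold enrichment, bar 10-fold) and H3K27ac peaks at 0 h (green) around the other 7 IGF genes, against the distance in kb from the start site, or from the lower end of the gene for Insr. Insr, Igf2r and Irs1 show lines in all 4 rows at the same place, Igfbp4 has most of its lines over Top2a, and Igfbp2 and Igfbp5 have none.

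Taking the windows as a set, the classes of loci stood near those of the whole series. Of the 39 loci, 4 were called only at 6 h (10.3%, 95% Wilson interval 4.06 to 23.6), against 15.1% of all 18584 loci. Only at 0 h there was 1 (2.56%, interval 0.454 to 13.2), against 4.15%, and in all 4 libraries there were 7 (17.9%, interval 8.98 to 32.7), against 27%. Each interval, which covers counting error only, contained the share over all loci. When the lists were cut to equal length, 3 loci were called only at 6 h and 3 only at 0 h. Leaving out a library loosens a class: loci only at 6 h were then 9 without the first and 10 without the second 6 h library, and loci only at 0 h were 4 without the first 6 h library and 3 and 5 without the first and second 0 h library. The rest of the loci, 27, were called in other sets, and 17 of the 39 were called in 1 library, against 32.9% of all loci. Of these 17, the first and second 6 h libraries gave 6 and 5, and the first and second 0 h libraries 4 and 2.

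**Figure D4:**
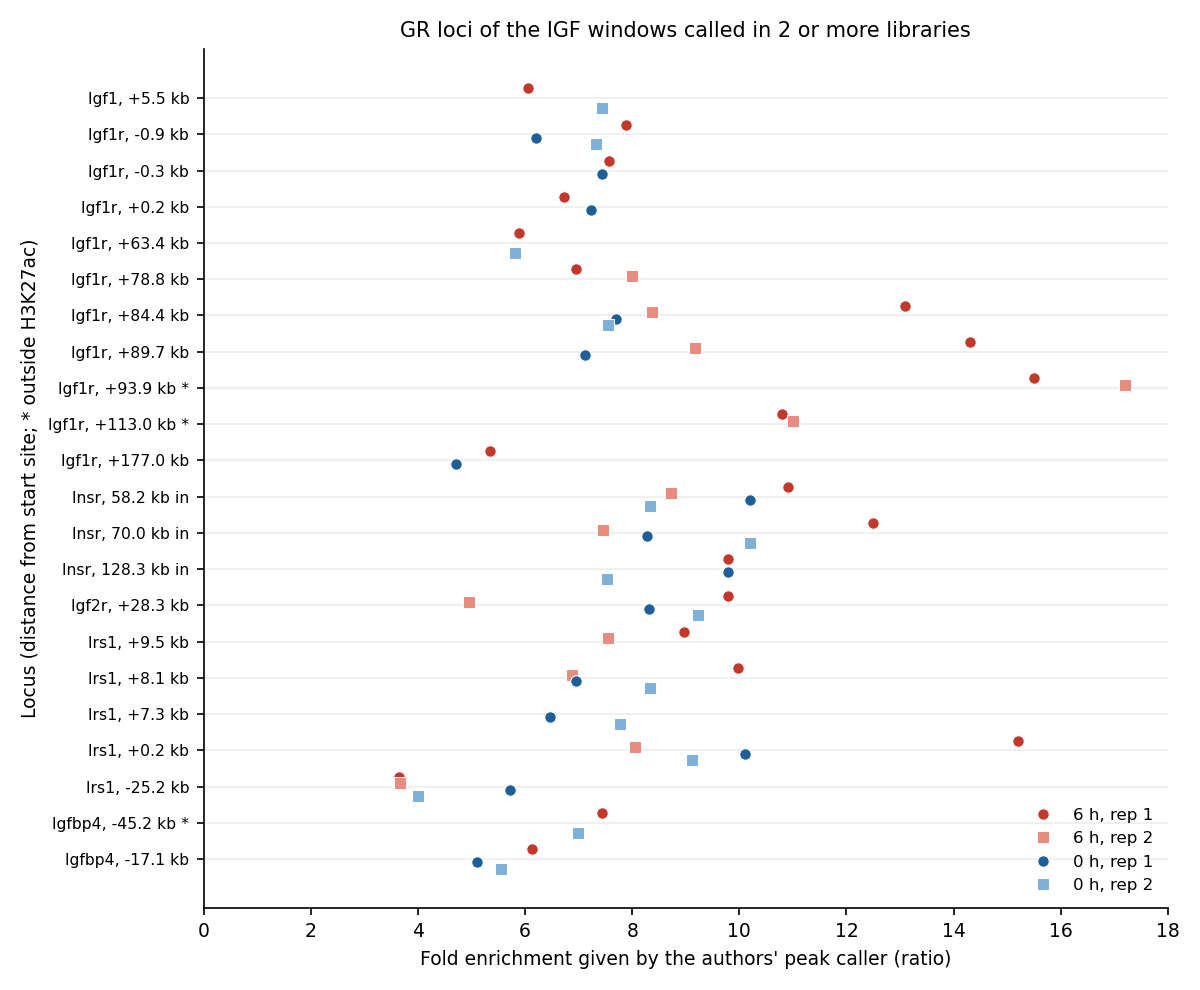
The authors' fold enrichment (x axis, ratio) of each IGF-window locus called in 2 or more libraries (rows, by distance from the start site; an asterisk marks loci outside H3K27ac at 0 h), with 1 point per library that called it. The Igf1r loci at 93.9 and 113 kb have points of the 6 h libraries alone, at 15.5 and 17.2 and at 10.8 and 11.

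By gene, 2 of the 8 (25.0%; Igf1r and Irs1) had a locus only at 6 h, against 16.5% of all genes, and 1 (12.5%; Irs1) had one only at 0 h, against 6.78%. A locus in all 4 libraries was found at 4 (50%; Igf1r, Insr, Igf2r and Irs1), against 45.5%. With 8 genes, 1 gene changes a share by 12.5 percentage points. When the lists were cut to equal length, 2 genes had a locus only at 6 h and 2 had one only at 0 h. Without the second 6 h library 4 genes had a locus only at 6 h, and genes with one only at 0 h were 4 without the first 6 h library, 3 without the first and 2 without the second 0 h library.

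H3K27ac at 0 h overlapped 26 of the 39 loci (66.7%, 95% Wilson interval 51.0 to 79.4), against 74.4% of all loci. Of the 13 loci outside H3K27ac, 8 lay over Top2a, the neighbour of Igfbp4. The share was 82.8% with windows of 10 kb, 81.5% with gene spans alone and 71.1% with windows of 100 kb. H3K27ac overlapped 7 of the 7 loci in all 4 libraries (98.4% over all loci), the 1 locus only at 0 h (91.3%) and 2 of the 4 only at 6 h (39.3%). In the other direction, 21 of the 90 H3K27ac peaks of the IGF windows held a GR locus (23.3%), against 36.1% of all H3K27ac peaks. All 8 windows had more H3K27ac than the median gene (1.82% of the window). A start site listed in the RefSeq promoter table, which covers 17491 of the 21883 genes and not Insr, was overlapped by 6 of the 39 IGF loci (15.4%), against 34.8% of the 18087 loci on the table's chromosomes. Among those 18087 the share was 4.02% of those only at 6 h, 18.7% of those only at 0 h and 69.0% of those in all 4 libraries. The 6 were the starts of Igf1r, Irs1, Igfbp4, Airn, Rhbdd1 and Top2a, so 3 of them belonged to IGF genes, with Insr not counted for want of a listed start.

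Of 36 other genes of the IGF and insulin pathway, 28 had a GR locus (77.8%, against 68.8% of all genes). A locus only at 6 h was found at 9 (25.0%, against 16.5%), only at 0 h at 0 (against 6.78%) and in all 4 libraries at 19 (52.8%, against 45.5%). By role, loci only at 6 h were found at 4 of 13 genes of PI3-kinase, AKT and FOXO, 2 of 4 of the binding-protein proteases and their inhibitors, 1 of 6 adaptors, 1 of 5 carriers, 1 of 3 ligands, 0 of 2 receptors and 0 of 3 mRNA-binding proteins. When the lists were cut to equal length, 8 of the 36 genes had a locus only at 6 h and 5 had one only at 0 h. Without the second 6 h library 15 of the 36 genes had a locus only at 6 h. Genes with one only at 0 h were 9 without the first 6 h library, and 4 and 7 without the first and second 0 h library.

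For Pappa, Pappa2, Grb14, Pik3r1 and Tsc2 the nearest locus only at 6 h overlapped the gene span, and the first 4, whose mean fold was higher, are described. Pappa had 2 such loci in its window and Pik3r1 had 3, of which the nearest, by fold where several overlapped the gene, is given. Pappa encodes the protease that cleaves IGFBP4, and its locus at chr4:65242419-65243196 had fold enrichments of 13.9 and 12.6 at 6 h, in H3K27ac. Pappa2, its relative, had 13.3 and 17.3 at 6 h at chr1:158853124-158853465, outside H3K27ac. Grb14, an adaptor that inhibits the insulin receptor, had 24.9 and 25.6 at 6 h at chr2:64955404-64956056, in H3K27ac. Pik3r1, the regulatory subunit of PI3-kinase, had 11.5 and 17.5 at 6 h at chr13:101758088-101758450, outside H3K27ac.

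Loci in all 4 libraries lay in the windows of 12 of the 13 genes of PI3-kinase, AKT and FOXO, against 45.5% of all genes. Each of these 13 windows held H3K27ac, and genes of similar H3K27ac coverage were not compared. Loci in all 4 libraries also lay in the windows of 4 of the 6 adaptors, 2 of the 5 carriers and 1 of the 3 mRNA-binding proteins. The 3 ligands, 4 proteases and inhibitors and 2 receptors had 0. The nearest such locus lay 48259 bp from Akt2, 45224 bp from Tsc2, 27105 bp from Igfals and 18487 bp from Akt1. It lay 11130 bp from Igf2bp3, 7614 bp from Igfbp6, 3671 bp from Mtor and 64 bp from Pdpk1. At the remaining genes it overlapped the gene span. Irs2, the sister adaptor of Irs1, had 14.6 and 8.20 at 6 h, against 11.1 and 11.9 at 0 h. Pik3ca, the catalytic subunit, had 13.9 and 8.93 at 6 h, against 11.2 and 8.63 at 0 h. Foxo3, a transcription factor that AKT restrains, had 10.8 and 8.12 at 6 h, against 10.2 and 13.6 at 0 h. Grb14 had, beside its locus only at 6 h, one with 9.24 and 8.73 at 6 h and 11.5 and 13.1 at 0 h. All 4 of these loci lay in H3K27ac.

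**Figure D5:**
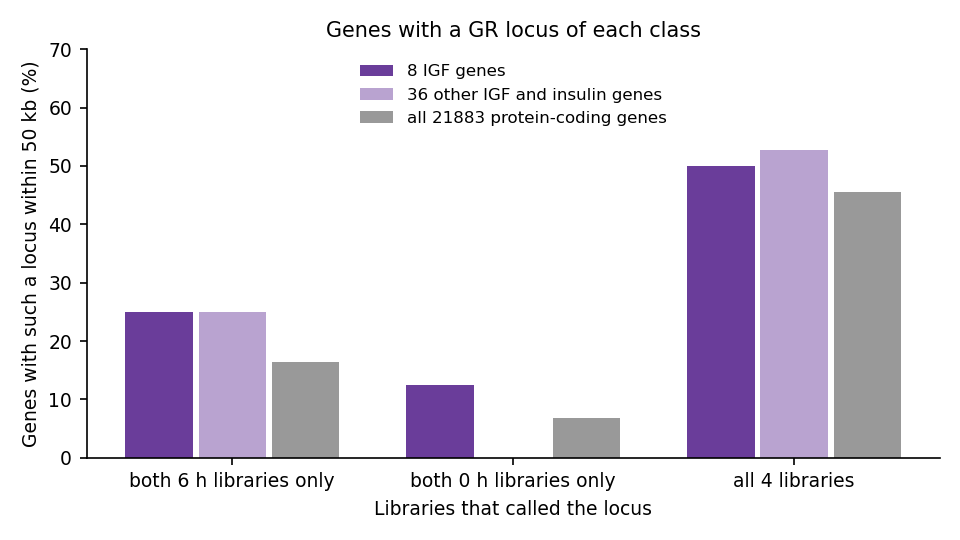
Share of genes (y axis, percent) with a GR locus within 50 kb that was called by both 6 h libraries alone, by both 0 h libraries alone or by all 4, for the 8 IGF genes, 36 other IGF and insulin genes and all 21883 protein-coding genes. For loci only at 6 h the bars stand at 25.0, 25.0 and 16.5%.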

How the data were processed

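GR and H3K27ac ChIP-seq peaks of granulosa cells were read from 5 deposited lists, 1 per library. Reads were aligned with Bowtie2 2.4.5 to mm10 and peaks called with MACS2, per the submitters' processing notes; the sources used here give no MACS2 version, read depth or control. Each deposited GR peak has the authors' score, fold enrichment (a ratio), −log10 p-value, −log10 q-value and summit, and the H3K27ac list has positions only. The score, which the authors' caller derives from the −log10 p-value, was not used.

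Only chromosomes 1 to 19, X and Y were used. GR peaks that shared at least 1 bp made up 1 locus, and overlap with H3K27ac needed 1 bp. Gene spans and promoters came from RefSeq tables of GRCm38.p6; 7 of the 8 IGF genes matched the promoter table, Insr being the exception. Peak counts were compared with an exact permutation test over libraries; counts of loci and genes have 95% Wilson intervals (counting error only) or no test. Python 3.11.15, numpy 2.4.6, pandas 2.3.3, scipy 1.17.1 and matplotlib 3.10.9 were used, and the counting was tested on simulated lists. The genes and lists were chosen with earlier results of these data known. All 8 genes are named; each locus only at 6 h, only at 0 h or in all 4 libraries is given, and of the other pathway genes the 4 per class with the locus nearest the gene, ties by fold. Alternatives were a 500-bp merge, an overlap of at least 50% of the shorter peak, H3K27ac over at least 50% of a locus, the 50% of each list with the higher −log10 p, equal list lengths, windows of 10 and 100 kb and the gene span alone, a replicate block and each library left out.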

Additional observations from a re-analysis of the deposited data

How the results depend on the processing

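Of 117 alternative values, 87 were classed as the same, 28 as moved and 2 as reversed. The causes were not tested unless stated. The same class includes differences in peak counts that kept their sign but changed in size. In the IGF windows 4.5 became 9.5 without the second 6 h library, and in the Igf1r window 5.5 became 2 with equal lists. The difference in peaks in the IGF windows, 4.5, became −3 with lists of equal length and ranged from −0.5 to 9.5 over the leave-one-out values. With the stronger 50% of each list (by −log10 p), loci and genes only at 0 h were 0 and 0, loci and genes in all 4 libraries 2 and 2, other pathway genes 5 (6 h alone) and 1 (0 h alone), and the share in H3K27ac 83.3%. With equal lists, loci and genes only at 0 h were 3 and 2, and those only at 6 h were also 3 and 2. Other genes were then 8 only at 6 h and 5 only at 0 h. Merging within 500 bp left 0 loci and 0 genes only at 0 h, because it joined the Irs1 pair. Windows of 10 kb gave an H3K27ac share of 82.8%; gene spans alone gave 81.5% and 5 other genes only at 6 h. Leaving out 1 library, which by construction asks fewer libraries to call a locus or to lack it, gave 4 to 10 loci and 2 to 4 genes only at 6 h, 1 to 5 loci and 1 to 4 genes only at 0 h, 7 to 10 loci and 4 to 5 genes in all libraries left, 9 to 15 other genes only at 6 h, 0 to 9 only at 0 h, and an H3K27ac share of 67.6 to 72.7%.

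With the replicate number as a block the difference was 4.5 (exact permutation test within pairs, p = 0.50). Deviations of equal-numbered libraries correlated at 0.03 over the 5012 loci called in all 4 libraries. With 2 libraries a time and only these shared loci, this cannot decide whether equal numbers mark libraries prepared together. Chosen after seeing the data, leaving out the loci over Top2a and Rhbdd1 kept the difference at 4.5, and the Igf1r difference of 5.5 was 4 with the stronger 50% of each list, 2 with equal lists and 3.5 to 7.5 with 1 library left out. With 2 libraries a time and unknown depth, no difference here could pass a threshold, and a locus missing from a list may lie just under the limit.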
